A study of Mus musculus with 4 samples.

Results

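The insulin-like growth factor (IGF) binding proteins and the receptors of insulin and IGF were followed as 10 genes in mouse liver. They comprised the 7 binding protein genes Igfbp1 to Igfbp7, the receptor genes Igf1r and Insr, and Irs2, which encodes an adaptor of both receptors. They were chosen by symbol, as the probe sets annotated with exactly 1 symbol equal to one of these names. This gave 25 of the 45101 probe sets of the array and 10 of 18194 named genes. Where a gene had several probe sets, the brightest on average was read, and the others are given beside it.

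The study crossed diethylnitrosamine (DEN), a carcinogen that initiates liver tumours in mice, with a diet containing the bile acid cholic acid (CA) at 0.2%. Its 4 groups were DEN followed by the CA diet, DEN followed by the control diet, the CA diet without DEN and the control diet without DEN, each with livers taken at 10 months of age. Each group was 1 array of RNA pooled from 3 to 5 mice, so no difference below has a replicate or a test. The sources used here do not give strain, sex, the dose and time of DEN or the share of tumour tissue in a pool. The values are log2 expression levels made by the authors, and a log2 difference of 1 is a 2-fold difference. A gene counted as expressed when its average level reached 4.86, the median of the averages of all probe sets. This held for 11651 genes and for all 10 followed here. The 18 probe sets for hybridization controls, RNAs added in fixed amounts, served as a technical scale. Their largest difference was 0.203 for DEN on the control diet, 0.370 for DEN on the CA diet, 0.305 for the CA diet without DEN and 0.267 for the CA diet after DEN. Hepatocyte markers stood at high levels on every array, with albumin (Alb) between 14.74 and 14.82, and the marker Tat was at 10.57 in the DEN + CA pool, against 11.81 in the DEN + control diet pool, 12.22 in the CA pool and 12.26 in the control pool.

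IGF1, made mainly by hepatocytes under growth hormone, circulates bound to IGF binding proteins, which prolong its life in blood and limit its access to the IGF1 receptor. The IGF1 receptor and the insulin receptor are related tyrosine kinases that signal through insulin receptor substrates to phosphatidylinositol 3-kinase (PI3K) and AKT. In liver, AKT keeps FOXO transcription factors out of the nucleus. Igfbp1 and Irs2 are classical genes that insulin lowers through FOXO1, so both are high in fasting.

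The start regions are shown for 3 genes that behaved differently with DEN, as described below. Igfbp1 differed at least 2-fold with DEN on both diets, Igfbp3 on the control diet and Irs2 on neither. Irs2 is shown as a further FOXO target, and a link between these sequences and the levels was not tested. The sequences are RefSeq promoters of the mouse build GRCm38.p6, 250 bases before to 50 after the gene's start, read 5′ to 3′ on the strand of the gene. Igfbp1 lies at chr11:7197537-7197836 (plus strand), Igfbp3 at chr11:7213874-7214173 (minus strand) and Irs2 at chr8:11008880-11009179 (minus strand). Capitals mark matches to the FOXO-type motif CAAAACA on either strand.
Igfbp1: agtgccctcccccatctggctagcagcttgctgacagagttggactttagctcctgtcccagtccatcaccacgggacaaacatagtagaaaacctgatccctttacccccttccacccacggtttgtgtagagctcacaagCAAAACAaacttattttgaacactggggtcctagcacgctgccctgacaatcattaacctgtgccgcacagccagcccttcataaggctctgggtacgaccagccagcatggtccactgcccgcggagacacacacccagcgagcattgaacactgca
Igfbp3: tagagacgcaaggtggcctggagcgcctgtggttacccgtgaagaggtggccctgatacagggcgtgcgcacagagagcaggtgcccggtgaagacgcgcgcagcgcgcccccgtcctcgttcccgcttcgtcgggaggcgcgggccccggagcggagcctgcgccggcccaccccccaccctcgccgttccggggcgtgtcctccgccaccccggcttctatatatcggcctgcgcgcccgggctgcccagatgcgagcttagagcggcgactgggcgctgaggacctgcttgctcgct
Irs2: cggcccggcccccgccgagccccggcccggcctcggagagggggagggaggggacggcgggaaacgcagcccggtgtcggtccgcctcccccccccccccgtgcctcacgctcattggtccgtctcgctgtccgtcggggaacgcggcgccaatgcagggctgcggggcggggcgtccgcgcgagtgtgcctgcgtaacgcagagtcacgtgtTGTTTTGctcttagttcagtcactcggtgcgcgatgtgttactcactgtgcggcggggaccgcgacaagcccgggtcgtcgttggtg

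The motifs searched on both strands were CAAAACA and GTAAACA, which do not contain each other. The table held promoters for 9 of the 10 genes (10 entries), and 2 genes had a match. Igfbp1 had CAAAACA on its own strand at bases -108 to -102 from the start. Irs2 had it on the opposite strand at bases -37 to -31. Among 32851 promoters of this length, 6.28% held CAAAACA, 3.65% held GTAAACA and 9.63% held either. A match is a description of the letters and not a bound site. Igfbp1 and Igfbp3 are direct neighbours on chromosome 11, and Igfbp2 and Igfbp5 are direct neighbours on chromosome 1, with 0 annotated genes between the genes of each pair.

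**Figure D1:**
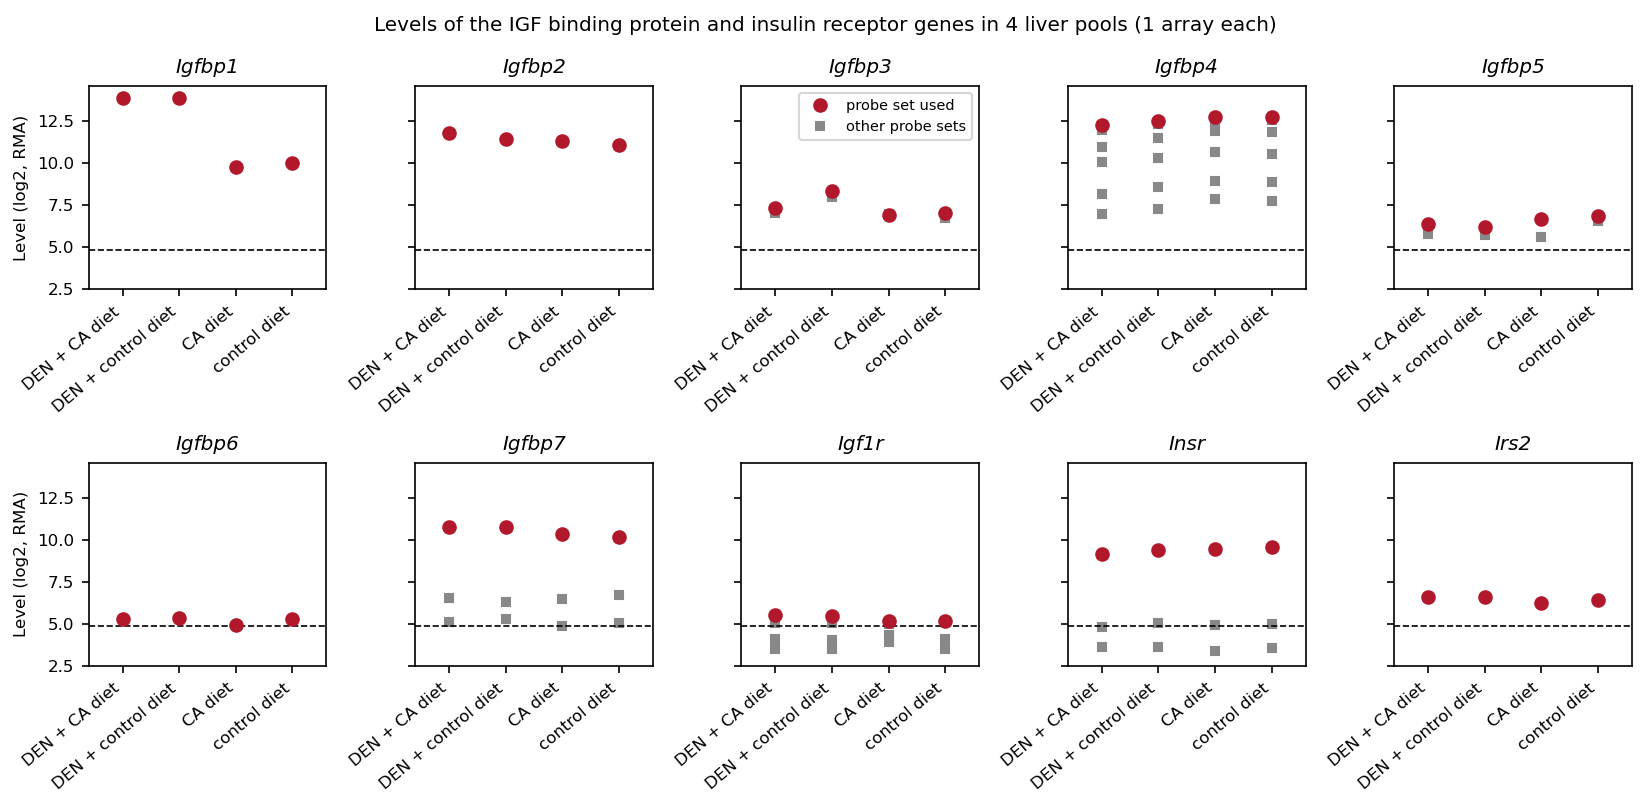
Level (log2) of each gene in the 4 liver pools, 1 array each. Red circles are the probe set used, grey squares the other probe sets of the gene, and the dashed line is the median over all probe sets, 4.86. Igfbp1 stood at 13.88 in both DEN pools and at 9.80 and 10.03 in the pools without DEN, while the other genes spanned at most 1.41 over the 4 arrays.

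Igfbp1, the insulin-regulated binding protein of hepatocytes, was much higher in both pools of mice given DEN. Its level was 13.88 in the DEN + CA pool and 13.88 in the DEN + control diet pool, against 9.80 in the CA pool and 10.03 in the control pool. The 2 pools with DEN lay together and far above the 2 pools without. Igfbp1 was 14.5-fold higher with DEN on the control diet and 16.8-fold higher with DEN on the CA diet (log2 differences 3.86 and 4.07), 2 comparisons that share no array. These differences ranked 29 and 30 from the top among 11651 expressed genes. The CA diet went with a difference of -0.22 without DEN and of -0.0064 after DEN, both inside the span of the hybridization controls. The gene has 1 probe set on this array, so no other probe set bears on this value. Beside it, 4 of 5 expressed cholangiocyte markers (7 measured) were at least 2-fold higher with DEN on each diet. Their summed linear level over the 7 was 4593 in the DEN + CA pool and 3705 in the DEN + control diet pool, against 191 in the CA pool and 157 in the control pool, and Tspan8 and Prom1 made up most of the sum with DEN. The defining keratins Krt7 and Krt19 averaged under 4.86. With DEN on the control and CA diets Krt7 differed by -0.02 and 0.04, and Krt19 by 0.73 and 0.29. Epcam, the remaining expressed marker, differed by -0.05 and 0.11, with its other probe set at 1.03 and 0.36. The lowest of the 5 probe sets of Tspan8 differed by 0.88 and 0.95, and the lowest of the 3 of Sox9 by 0.14 and 0.49. The 6 hepatocyte markers had medians of -0.08 and -0.23 with DEN on the control and CA diets, and the 2 expressed of 4 markers of smooth muscle and myofibroblasts 1.52 and 1.51. Of these, Acta2, smooth muscle actin, was 3.83-fold and 4.43-fold higher with DEN on the control and CA diets, with the lowest of its 3 probe sets at 0.06 and -0.24, and Tagln differed by 1.11 and 0.88. Myh11 and Cnn1, the markers of this list that averaged under 4.86, differed by 0.10 and 0.19 with DEN on the control diet. On the CA diet they differed by -0.02 and 0.14. Over all 4 measured markers of smooth muscle and myofibroblasts the medians were 0.65 and 0.51. The part of cholangiocytes, hepatocytes or these cells in the level of Igfbp1 was not tested. In a pool of whole liver, a change in the number of cells that make a transcript and a change in its amount per cell cannot be told apart.

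Igfbp3 encodes the main carrier of IGF in blood, and in rat liver it is made largely by cells other than hepatocytes. It was highest in the DEN + control diet pool. Its level was 7.33 in the DEN + CA pool, 8.34 in the DEN + control diet pool, 6.93 in the CA pool and 7.03 in the control pool. The second probe set read 7.07, 8.02, 6.98 and 6.78 in the same order of pools. By both probe sets the DEN + control diet pool stood above the other 3, which lay within 0.39 of each other by the probe set used.

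On the control diet, Igfbp3 was 2.49-fold higher with DEN (log2 difference 1.32, second probe set 1.24). On the CA diet it was 1.31-fold higher with DEN (0.39, second probe set 0.10). After DEN, Igfbp3 was 2.02-fold lower on the CA diet than on the control diet (-1.01, second probe set -0.94), which was rank 55 from the lowest among expressed genes. This lay at the 2-fold limit, and with quantile normalization, centring, loess or the mean of both probe sets it was between -0.98 and -0.97. Without DEN the CA diet went with a difference of -0.09 (second probe set 0.20). The diet difference after DEN minus that without DEN was -0.92, or -1.15 by the second probe set, and it was not tested, having 1 array per pool. For this difference of differences 1.17% of expressed genes reached 2-fold in either direction.

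Markers of other liver cells moved to different degrees with the same pools. The 10 markers of stellate cells and fibroblasts had a median difference of 0.53 with DEN on the control diet and of 0.34 on the CA diet. On the control diet 3 (Col1a1, Col1a2 and Col3a1) were at least 2-fold higher, against 5.12% of all expressed genes. On the CA diet 1 (Col3a1) was, against 4.75%. Col1a1 stood at 4.55 in the control pool and was 1.66-fold higher with that level raised to 4.86. Lrat, Des and Dcn differed by -0.41, -0.04 and -0.09 with DEN on the control diet, and the other 7 were above 0. On the CA diet after DEN, where Igfbp3 was lower, 4 of the 10 were above 0 and 6 below (median -0.04), from -0.61 for Reln to 0.57 for Pdgfra. The summed linear level of the list was 4272 in the DEN + CA pool, 4783 in the DEN + control diet pool, 3650 in the CA pool and 3267 in the control pool. The 8 expressed of 9 endothelial markers had medians of 0.31 and 0.48 with DEN on the control and CA diets, and their sum over all 9 was 2232, 1923, 1617 and 1574 in the order of pools just given. The 8 macrophage markers were all above 0 on the CA diet both after DEN (median 0.48), where Igfbp3 differed by -1.01, and without DEN (median 0.70), where it differed by -0.09. Their sums were 6253 in the DEN + CA pool, 4194 in the DEN + control diet pool, 4508 in the CA pool and 2870 in the control pool. Of the markers in these 3 lists only Pecam1, of endothelial cells, had an average under 4.86. The part of these cells in the levels of Igfbp3 was not tested.

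Igfbp2, a binding protein of fetal and adult hepatocytes, stood at 11.83 in the DEN + CA pool, 11.45 in the DEN + control diet pool, 11.35 in the CA pool and 11.06 in the control pool. It was the only one of the 10 genes whose probe set used was above 0 by more than 0.2 in all 4 comparisons. The differences were 0.38 with DEN on the control diet, 0.48 with DEN on the CA diet, 0.28 with the CA diet without DEN and 0.38 with the CA diet after DEN. All 4 stayed under 2-fold, and that of the CA diet without DEN lay inside the span of the hybridization controls.

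Igfbp4, a binding protein abundant in liver, is read by 6 probe sets that share its transcript and are not independent. Its level by the probe set used was 12.26 in the DEN + CA pool, 12.54 in the DEN + control diet pool, 12.73 in the CA pool and 12.77 in the control pool. All 6 probe sets were lower with DEN on both diets and lower on the CA diet after DEN. The differences ran between -0.44 and -0.22 for DEN on the control diet, between -0.91 and -0.47 for DEN on the CA diet and between -0.54 and -0.27 for the CA diet after DEN. Without DEN, the CA diet went with differences between -0.05 and 0.12. No probe set of Igfbp4 reached 2-fold, and the brightest, which was used, had the smallest difference for DEN on the CA diet.

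Igfbp5, which binds to matrix and is made by mesenchymal cells in many tissues, stood at 6.40 in the DEN + CA pool, 6.24 in the DEN + control diet pool, 6.68 in the CA pool and 6.84 in the control pool. Its second probe set read 5.80, 5.72, 5.61 and 6.55 in the same pools. Both probe sets were highest in the control pool and lower with DEN on the control diet (-0.61 and -0.83). With DEN on the CA diet they differed in sign (-0.27 for the probe set used and 0.19 for the second), and on the CA diet without DEN in size (-0.17 and -0.95).

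Igfbp6, which prefers IGF2, was close to background, at 5.31 in the DEN + CA pool, 5.33 in the DEN + control diet pool, 4.93 in the CA pool and 5.29 in the control pool. Its difference of -0.36 on the CA diet without DEN was the only one of the 10 genes past the hybridization controls in that comparison. Igfbp7, a secreted relative of low affinity for IGF found in vessels, stood at 10.77 in the DEN + CA pool, 10.74 in the DEN + control diet pool, 10.34 in the CA pool and 10.14 in the control pool. By this probe set it was 1.51-fold higher with DEN on the control diet and 1.35-fold higher with DEN on the CA diet. The other 2 probe sets, with means of 6.51 and 5.08, differed by -0.41 and 0.21 for DEN on the control diet, so the probe sets of Igfbp7 do not share a direction there.

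The receptors and the adaptor varied little. Insr, the insulin receptor gene, stood at 9.18 in the DEN + CA pool, 9.41 in the DEN + control diet pool, 9.44 in the CA pool and 9.58 in the control pool. Its 4 differences ran between -0.26 and -0.13, all inside the span of the hybridization controls, and its other 2 probe sets had means of 4.96 and 3.56. Igf1r, the IGF1 receptor gene, which adult hepatocytes express at very low levels, was near background at 5.54 in the DEN + CA pool, 5.44 in the DEN + control diet pool, 5.18 in the CA pool and 5.18 in the control pool. Of its 5 probe sets 3 had means at or above 4.86, and none differed by more than 0.43 in any of the 4 comparisons. Irs2 stood at 6.58 in the DEN + CA pool, 6.58 in the DEN + control diet pool, 6.22 in the CA pool and 6.41 in the control pool. With DEN it differed by 0.17 on the control diet and by 0.37 on the CA diet, against 3.86 and 4.07 for Igfbp1.

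**Figure D2:**
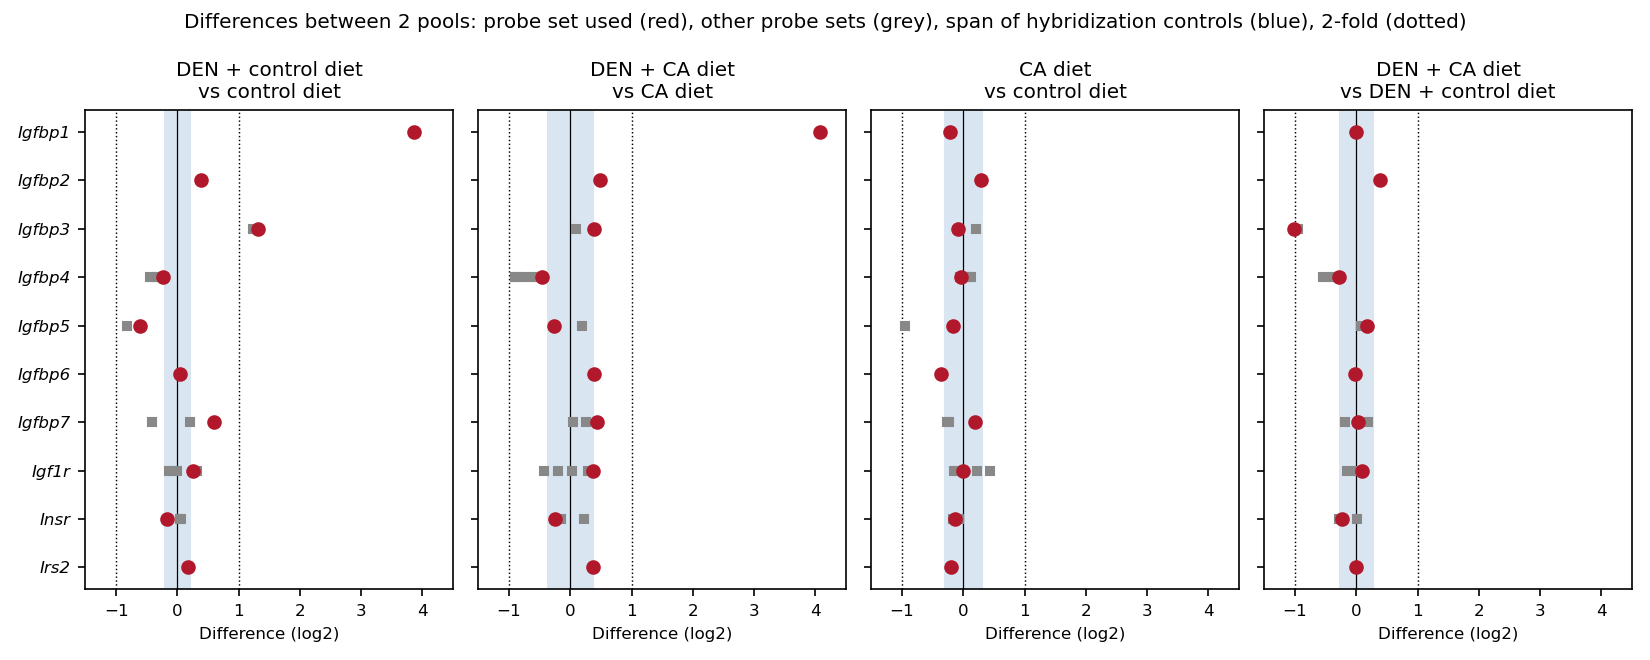
Log2 difference of each gene in the 4 comparisons, with the probe set used in red, other probe sets in grey, the span of the hybridization controls in blue and the 2-fold limits dotted. Igfbp1 stands at 3.86 and 4.07 in both DEN comparisons, and Igfbp3 at 1.32 with DEN on the control diet and at -1.01 on the CA diet after DEN.

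Counted together, 2 of the 10 genes (Igfbp1 and Igfbp3) were at least 2-fold higher with DEN on the control diet, where 5.12% of all expressed genes were, and 0 were at least 2-fold lower, against 0.901%. With DEN on the CA diet 1 gene (Igfbp1) was at least 2-fold higher, where 4.75% of expressed genes were, and 0 were lower, against 1.75%. On the CA diet without DEN 0 of the 10 were 2-fold higher and 0 lower, against 0.661% and 0.592% of expressed genes. On the CA diet after DEN 1 gene (Igfbp3) was at least 2-fold lower, against 0.472%, and 0 were higher, against 0.266%. These genes were grouped with earlier results of these arrays known, so the counts describe the pools and carry no test.

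The differences of the 10 genes had medians of 0.21 with DEN on the control diet, 0.38 with DEN on the CA diet, -0.11 on the CA diet without DEN and -0.0018 on the CA diet after DEN. The same medians over all expressed genes were 0.035, 0.0043, 0.015 and -0.022. Past the largest difference of the hybridization controls lay 7 of the 10 with DEN on the control diet, where 53.6% of expressed genes did, and 6 of 10 with DEN on the CA diet, against 30.7%. For the CA diet these were 1 of 10 without DEN, against 17.8%, and 3 of 10 after DEN, against 19.7%.

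**Figure D3:**
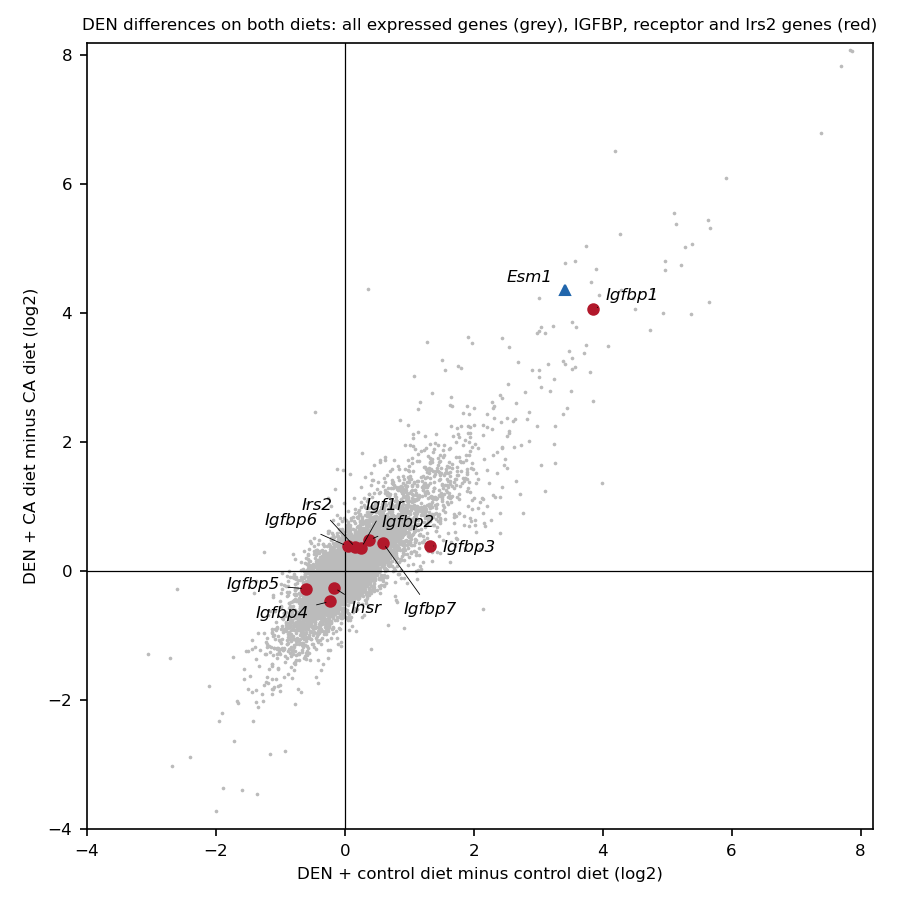
DEN difference (log2) on the CA diet against that on the control diet, for all expressed genes (grey), the 10 genes (red) and Esm1 (blue triangle). Igfbp1 lies far out on both axes, Igfbp3 lies at 1.32 on the horizontal and 0.39 on the vertical axis, and the other 8 lie within the dense cloud.

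Profiles most like those of Igfbp1 and Igfbp3 were sought among 11188 other expressed genes, as the smallest root mean square difference between levels centred on each gene's own mean over the 4 arrays. With only 4 arrays, this likeness is a description. Nearest to Igfbp1 were Mtmr11, a member of the myotubularin family (0.139), Esm1, endocan, a proteoglycan secreted by endothelial cells (0.188), and Ipcef1 (0.200). Mtmr11 stood at 7.98 in the DEN + CA pool, 7.92 in the DEN + control diet pool, 4.18 in the CA pool and 4.33 in the control pool. Both levels of Mtmr11 without DEN lay under 4.86, as did those of Ipcef1 (3.22 in the CA pool and 3.20 in the control pool). Their high levels with DEN thus helped both genes to be among those searched. Nearest to Igfbp3 were Tspyl4 (0.0989), the ABC transporter gene Abca5 (0.144) and Aph1b, which encodes a gamma-secretase subunit (0.150). Abca5 stood at 6.82 in the DEN + CA pool and 7.43 in the DEN + control diet pool, against 6.19 in the CA pool and 6.30 in the control pool. All 3 neighbours of Igfbp3 were, like it, highest in the DEN + control diet pool, which a search by likeness favours.

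Around these genes, 9 lists of the IGF and insulin pathway held 66 measured genes, 60 of them expressed. With DEN on the control diet 4 of the 60 were at least 2-fold higher and 1 lower (median -0.03), and with DEN on the CA diet 4 were higher and 3 lower (median -0.08). Over all expressed genes the shares higher and lower were 5.12% and 0.901% on the control diet and 4.75% and 1.75% on the CA diet. Among ligands and carrier, 0 of 4 reached 2-fold. Igf1 stood at 11.42 in the DEN + CA pool and 11.72 in the DEN + control diet pool, against 12.18 in both the CA pool and the control pool. Igfals, the acid-labile subunit that completes the blood complex of IGF with IGFBP3, stood at 7.84 and 8.14 in the DEN + CA and DEN + control diet pools, against 8.77 and 8.81 in the CA and control pools. The growth hormone receptor gene Ghr stood at 11.93 and 12.12 in the same DEN pools, against 12.82 and 12.86 in the CA and control pools. For these 3 genes both pools with DEN lay below both pools without, by less than 2-fold by the probe sets used. Another probe set of Ghr differed by -1.12 with DEN on the CA diet. Igf2, the fetal ligand, was near background (5.21 in the DEN + CA pool, 5.37 in the DEN + control diet pool, 4.97 in the CA pool and 4.93 in the control pool).

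Secreted proteins that share the IGFBP module or are related to the family were the list with the largest share of 2-fold higher genes. With DEN on the control diet 3 of 7 expressed members were 2-fold higher, against 5.12% of all expressed genes. On the CA diet 2 of 7 were, against 4.75%. Kazald1 in both pools without DEN (4.76 and 4.49) and Esm1 in the CA pool lay under 4.86. Levels high with DEN thus helped them to count as expressed. Ccn3, which averaged under 4.86 and was not counted, differed by 0.34 and 0.82. Esm1 stood at 8.78 in the DEN + CA pool, 8.43 in the DEN + control diet pool, 4.42 in the CA pool and 5.02 in the control pool. It was 10.7-fold higher with DEN on the control diet and at least 15.2-fold higher on the CA diet, where the lower level was raised to 4.86 for the fold. Kazald1, a Kazal-domain relative, was at least 3.99-fold and at least 3.38-fold higher with DEN on the control and CA diets. Ccn2, connective tissue growth factor, was 2.76-fold higher with DEN on the control diet and 1.86-fold higher on the CA diet (levels 8.96 in the DEN + CA pool, 9.23 in the DEN + control diet pool, 8.07 in the CA pool and 7.77 in the control pool).

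Among 10 expressed adaptors and receptor inhibitors, 1 reached 2-fold. Beside this count and those below stand the array-wide shares for DEN. For the control diet 5.12% of expressed genes were that much higher and 0.901% that much lower. For the CA diet the shares were 4.75% and 1.75%. Grb10, an imprinted adaptor that dampens insulin and IGF1 receptor signals, was 2.58-fold higher with DEN on the control diet and 2.95-fold higher on the CA diet (7.12 in the DEN + CA pool, 6.59 in the DEN + control diet pool, 5.56 in the CA pool and 5.22 in the control pool). Another of its probe sets differed by only 0.04 and -0.12. The main insulin receptor substrate gene besides Irs2, Irs1, differed by 0.13 and -0.29. Of 18 genes of the PI3K, AKT, FOXO and MTOR list, 0 reached 2-fold with DEN on the control diet and 2 were lower with DEN on the CA diet. These were Foxo3, a FOXO factor (7.53 in the DEN + CA pool, against 8.84 in the CA pool), and Pik3r1, the regulatory subunit of PI3K (7.92 in the DEN + CA pool, against 9.01 in the CA pool). A further probe set of Foxo3 differed by only -0.08 in that comparison. The FOXO1 gene, Foxo1, differed by -0.16 and -0.64 with DEN on the control and CA diets. The 4 expressed genes for IGFBP proteases and their regulators and the 2 IGF2 mRNA-binding protein genes had 0 members at 2-fold.

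Of 8 liver genes that insulin lowers, 0 were at least 2-fold higher with DEN on either diet, where 5.12% and 4.75% of all expressed genes were, so the count does not set the list apart. Pck1, the gluconeogenic enzyme PEPCK, stood at 12.47 in the DEN + CA pool, 12.44 in the DEN + control diet pool, 12.96 in the CA pool and 12.68 in the control pool. Its 3 probe sets disagreed, with differences between -0.55 and 0.96 for DEN on the control diet and between -1.31 and 1.09 for DEN on the CA diet. G6pc, glucose-6-phosphatase, differed by 0.50 and 0.64, and Pdk4, a kinase that inhibits pyruvate dehydrogenase, by 0.77 and 0.42, with DEN on the control and CA diets. Ppargc1a, a coactivator of gluconeogenesis, was 2.18-fold lower with DEN on the control diet, and Angptl4, a lipase inhibitor, was 4.15-fold lower with DEN on the CA diet (its other probe set at -0.84). The list had medians of -0.20 and -0.29 in these comparisons. Of 5 genes that insulin raises, Pnpla3 was 2.25-fold higher with DEN on the CA diet, and the medians were 0.27 and -0.07.

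**Figure D4:**
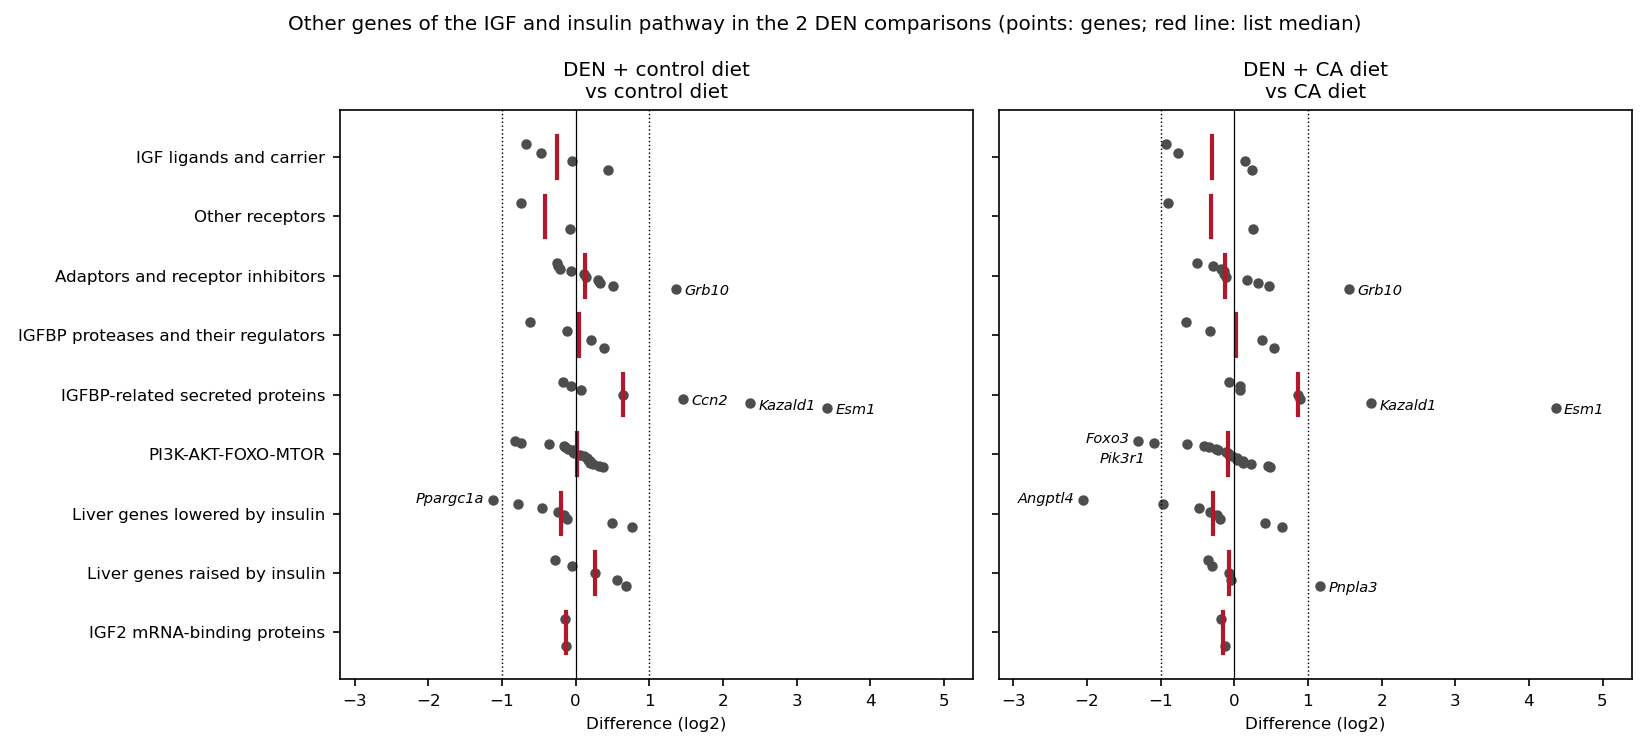
Log2 differences of the expressed genes of 9 pathway lists with DEN on the control diet (left) and on the CA diet (right). Points are genes, red lines list medians and dotted lines the 2-fold limits, and genes past 2-fold are named. Most points lie within 2-fold, and Esm1 and Kazald1 lie farthest to the right.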

How the data were processed

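The authors deposited log2 expression levels, and the submitters' processing notes name Partek 6.5 and RMA. RMA corrects background, draws the distributions of arrays together and summarises probes, so a change of most genes the same way would be removed. The sources used here give no options. Arrays had medians between 4.84 and 4.86, with no detection call. Per the labels' protocols, biotin was attached to total RNA by a dendrimer kit (FlashTag). Such kits are usual for microRNA arrays, and the labels do not explain its use for this expression array. The number of arrays limits the precision.

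Of 45101 probe sets, 34958 had 1 symbol, 932 several and 9211 none in the supplied platform annotation. By gene identifier 34754 matched RefSeq, with 0 symbols changed, and all 25 probe sets used here matched. Differences of 2 arrays were computed with Python 3.11.15 and pandas 2.3.3, and a gene was counted from 2-fold on. For folds marked "at least", levels under 4.86 were first set to 4.86. The 10 genes and the pathway and marker lists were chosen with earlier results of these data known. Named are all 10 genes, list members past 2-fold (at most 4 a list and comparison) and the 3 nearest profiles of each gene spanning 2-fold. Other named list genes and markers, such as Igf1 and Pck1, were chosen after their values were seen. List members with no probe set of 1 symbol are not analysed here. The steps were tested on simulated data.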

Additional observations from a re-analysis of the deposited data

How the results depend on the processing

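With 1 pooled array per group no spread between mice could be estimated, and levels near 4.86 (Igfbp6, Igf1r) leave little signal over background. No paired analysis was possible because each group has 1 array. At a 1.5-fold limit, 4 of the 10 genes differed with DEN on the control diet (Igfbp5 and Igfbp7 added), and over all expressed genes 1801, 1904, 496 and 362 passed for DEN on the control diet, DEN on the CA diet, the CA diet without DEN and the CA diet after DEN, against 701, 757, 146 and 86 at 2-fold. For the CA diet after DEN, 0 of the 10 genes reached 2-fold with quantile normalization, centring, loess or the mean over probe sets, since Igfbp3 then stood between -0.98 and -0.97. The mean over probe sets moved Igfbp7 with DEN on the control diet to 0.13 and Igfbp5 on the CA diet without DEN to -0.56. Of 250 recomputed values of the 10 genes, these 2 moved by more than the hybridization controls. Part of the 250 could not move: those with low levels raised to 4.86, as no level used lay under it. The mean over probe sets could not move Igfbp1, Igfbp2, Igfbp6 or Irs2, which have 1 probe set each. Of the 50 values 9 took the other sign under some alternative, none of them larger than 0.194. Centring shifted the median of expressed genes by -0.16 for DEN on the control diet and gave 455 genes higher and 192 lower, against 596 and 105. The counts of the 10 genes for DEN on the CA diet (1) and the CA diet without DEN (0) were equal under all 7 alternatives. Leaving out the expression filter could not change these counts, since all 10 genes were always counted. Nor could raising low levels to 4.86, since all levels used for these genes lay above it.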

Other observations

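On the CA diet without DEN, 0 of the 60 expressed genes of the pathway lists reached 2-fold. Array-wide, 0.661% of expressed genes were that much higher and 0.592% that much lower. After DEN these shares were 0.266% and 0.472%, and 1 of the 60 genes reached 2-fold. This was Angptl4, at 8.44 in the DEN + CA pool, against 9.64 in the DEN + control diet pool (2.29-fold lower, its other probe set at -0.30). In the same comparison 16 of the 18 genes of the PI3K, AKT, FOXO and MTOR list lay below 0, by a median of -0.10, where 54.9% of all expressed genes lay below 0 (median -0.022). That median is smaller than the span of 0.267 over which the hybridization controls differed between the same arrays. Ppargc1a stood at 6.14 in the DEN + CA pool, 6.68 in the DEN + control diet pool, 7.10 in the CA pool and 7.81 in the control pool, so that it was lower with either treatment and lowest with both.

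The dimmest of the 5 probe sets of Igf1r held the identical value of 3.50 on 3 arrays and 3.92 on the CA array.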
